A study of Mus musculus with 2 samples.

Results

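The genes described here are known from retinal neurons and macroglia, and their reads were counted in sorted microglia of the mouse retina. The set named 46 symbols, of which Recoverin is the protein name of *Rcvrn*, so that it stood for 45 genes. They were chosen by their known expression in photoreceptors, inner neurons, ganglion cells, neurons in general or macroglia, and in part by their values in these libraries: *Pdc*, *Ncam1*, *Nlgn2*, *Trim9*, *Ttyh1* and *Zfp536* had been selected on 0 reads in one library. Of the 45 genes, 33 were listed among the 13549 genes of the count table, and 31 of these had at least 20 reads over both libraries. The other 12 (*Rcvrn*, *Gngt1*, *Vsx1*, *Isl1*, *Pou4f1*, *Pou4f2*, *Nefl*, *Stmn2*, *Gap43*, *Gfap*, *Aqp4* and *Clu*) have no reads analysed here, and some of them enter only the description of promoters. The smallest sum over both libraries of any listed gene was 6 reads.

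Both libraries came from retinas at postnatal day 5 of CD11c-Cre-gfp;Rosa-TDTom mice, in which the CD11c (*Itgax*) promoter drives a Cre recombinase with GFP and Cre permanently switches on the red reporter TdTomato. Cd11c-active cells (GFP+TdTom+, 4041 cells) had both colours when sorted, and Cd11c-lineage cells (GFP-TdTom+, 5441 cells) had kept the red label alone. The cells were sorted from a pool of 8 retinas, 4 female and 4 male, and the labels name no further treatment or control group. Each population gave 1 library, so no difference below has a replicate check, no test of the 2 conditions was possible, and every ratio compares these 2 libraries. Of 15 microglial markers all 15 were listed, with 302188 and 323699 reads in Cd11c-active and Cd11c-lineage, a log2 ratio of the sums of 0.09 that was -0.05 with scaling to library totals.

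Microglia are the macrophages of nervous tissue. In the first postnatal week of the mouse retina, many newly made neurons die by apoptosis, and microglia engulf them and digest their contents. Photoreceptors sense light, bipolar, horizontal and amacrine cells form the inner circuits, and ganglion cells send the axons of the optic nerve. Muller glia and astrocytes are the macroglia. In a count table, RNA of these cells that was engulfed and RNA that was carried over in the sort cannot be told apart. RNA made by the sorted cells themselves cannot be told apart from them either. Nor can fewer cells of a type be told apart from less RNA per cell.

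The promoters of 3 photoreceptor genes are shown, one with the motif of factors of this group, one with its shorter core and one with neither. CRX and OTX2, homeobox factors of photoreceptors that are both in the set, bind the letters TAATCC. Promoter windows from RefSeq on GRCm38.p6, cut to the 250 bases before the start, were matched to 32 of the 45 genes and gave 43 windows. TAATCC, searched on both strands, was in 3 of 11 windows of photoreceptor genes (27.3%), in *Crx*, *Gngt1* and 1 of the windows of *Otx2*. It was in 1 of 27 windows of the other neuronal genes (3.70%), in 0 of 5 macroglial windows, and in 6.25% of all 32851 windows. Its shorter core TAATC, which lies within every TAATCC, was in 4 of the 11 windows (36.4%), with *Opn1sw* added, in 7 of 27 windows of the other neuronal genes (25.9%), in 0 of 5 macroglial windows and in 19.8% of all. A match is a description of letters and not a bound site. The windows of *Crx* (chr7:15879956-15880205, minus strand), *Opn1sw* (chr6:29380514-29380763, minus strand) and *Pdc* (chr1:150319167-150319416, plus strand) are given 5′ to 3′ with TAATCC, or TAATC where the last letter differs, in capitals on either strand. *Crx* held 2 matches, *Opn1sw* 1 of the shorter core, and *Pdc* none.
Crx: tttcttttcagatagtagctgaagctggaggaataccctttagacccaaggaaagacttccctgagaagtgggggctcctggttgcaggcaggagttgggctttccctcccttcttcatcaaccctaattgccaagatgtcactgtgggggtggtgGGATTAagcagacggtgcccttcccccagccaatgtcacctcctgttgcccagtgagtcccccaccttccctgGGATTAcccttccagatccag
Opn1sw: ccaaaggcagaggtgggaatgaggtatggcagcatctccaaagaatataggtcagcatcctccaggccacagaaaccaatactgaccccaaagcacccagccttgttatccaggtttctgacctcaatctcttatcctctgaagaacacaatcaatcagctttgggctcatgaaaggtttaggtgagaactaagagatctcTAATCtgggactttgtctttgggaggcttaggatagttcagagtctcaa
Pdc: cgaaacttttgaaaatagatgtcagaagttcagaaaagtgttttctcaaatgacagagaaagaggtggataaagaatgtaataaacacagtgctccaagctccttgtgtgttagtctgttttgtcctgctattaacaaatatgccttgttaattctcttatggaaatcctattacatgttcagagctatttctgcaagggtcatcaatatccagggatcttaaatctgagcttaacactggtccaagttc

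The libraries were of similar size, with 12943998 (Cd11c-active) and 13402625 (Cd11c-lineage) reads, but differed far more between themselves than independent reads would. Among 1978 genes with at least 800 and under 1600 reads over both libraries, the variance of the log2 ratio was 88.7 times that of counting. The main ratios are therefore given with a widened 95% interval, for which the reads were divided by 88.7, and some also with an interval for counting error only. By this measure the 12 listed genes with under 200 reads carry little information on a ratio, which is why sums over groups are given. A count of 0 allows up to 3 reads from counting error alone, and 266 reads after widening. Ratios have Cd11c-active as numerator and use TMM scaling, under which the median log2 ratio of the 13037 genes with at least 20 reads was 0.01. With scaling to library totals that median was -0.13, which shifts every ratio alike.

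The 27 listed neuronal genes together had 2621 Cd11c-active reads and 9273 Cd11c-lineage reads. This was 0.0202% and 0.0692% of all reads, or 8.67 and 28.6 reads for every 1000 reads of the 15 microglial markers. After scaling, the sum was 3.11-fold higher in Cd11c-lineage, a log2 ratio of -1.64 (widened interval -2.28 to -1.04). Part of this lies in the choice of genes. Without the 6 selected on 0 reads, the sums were 2621 and 5847 reads. The difference was then 1.96-fold, a log2 ratio of -0.97 (-1.65 to -0.32). The remaining genes were also chosen with earlier results of these data known, so this ratio is not free of that choice. Endothelial markers lay the other way, with 8801 and 1064 reads over 10 genes and a log2 ratio of 3.23, *Cldn5*, *Esam*, *Flt1*, *Tek* and *Plvap* being at 0 reads in Cd11c-lineage. The part of the endothelial difference in the neuronal result was not tested.

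**Figure D1:**
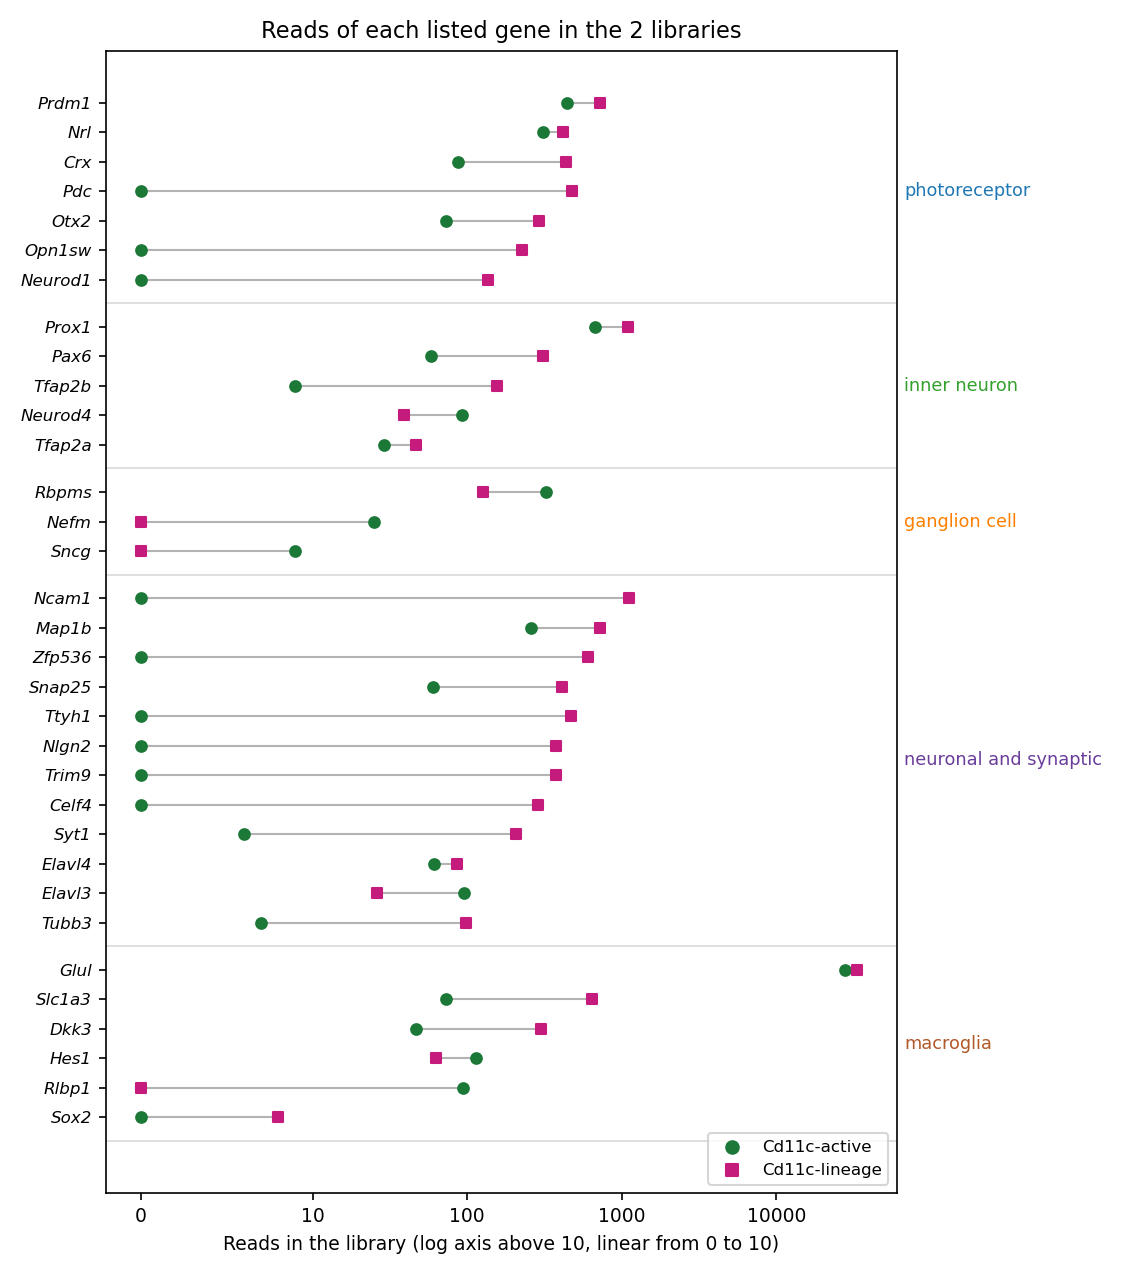
Reads of the 33 listed genes (rows, by group) in Cd11c-active (green circles) and Cd11c-lineage (magenta squares), on a horizontal axis that is linear from 0 to 10 reads and logarithmic above. Most squares lie to the right of the circles among photoreceptor and neuronal and synaptic genes, the 3 ganglion cell genes lie the other way, and *Glul* stands far above all others in both libraries.

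Photoreceptor genes had 911 Cd11c-active reads and 2703 Cd11c-lineage reads, a 2.61-fold higher sum in the latter with a log2 ratio of -1.38 (-1.49 to -1.27 by counting error, -2.56 to -0.32 widened). Apart from *Pdc*, whose direction was fixed by its selection, 6 of 6 were lower in Cd11c-active, where 49.8% of all genes were. These genes were also chosen with earlier results of these data known, so nothing is read from this count. The homeobox factor *Otx2*, which commits progenitors to the photoreceptor and bipolar fates, had 73 and 292 reads. *Crx*, the factor that OTX2 switches on in photoreceptor precursors, had 87 and 435 reads, a log2 ratio of -2.13 (widened -7.79 to 1.05). *Nrl*, the leucine zipper factor that sets rods apart from cones, had 311 and 415 reads and a log2 ratio of -0.23. The early factors thus differed among themselves in ratio, but their widened intervals all included 0.

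*Prdm1*, a repressor that keeps young photoreceptors from becoming bipolar cells and that macrophages also make, had 440 and 722 reads. It held the most reads of the group, and the group's log2 ratio without it was -1.89. Without *Pdc*, which had been selected on its 0, the group had 911 and 2227 reads, a log2 ratio of -1.10 (widened -2.31 to -0.0055). Of the genes of light response, *Pdc* (phosducin, which binds transducin subunits) had 0 and 476 reads, and *Opn1sw* (the short-wavelength cone opsin) had 0 and 227. The log2 ratios of *Opn1sw* and *Pdc* were at most -5.75 and -6.82 by counting error, but their widened intervals reached 1.88 and 0.17. *Neurod1*, a bHLH factor of photoreceptors and amacrine cells, had 0 and 136 reads. *Pdc*, unlike *Opn1sw* and *Neurod1*, had been selected on its 0.

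Inner neuron genes had 861 and 1649 reads, a log2 ratio of -0.75 (widened -2.04 to 0.44). *Prox1*, a homeobox factor of horizontal, amacrine and bipolar cells, held most of them with 673 and 1099 reads, and its log2 ratio was -0.52 (widened -2.04 to 0.90). Leaving out *Prox1* gave 188 and 550 reads and a ratio of -1.36 (-4.57 to 1.06). *Pax6*, which is kept on in amacrine, horizontal and ganglion cells after the progenitor stage, had 58 and 308 reads, a log2 ratio of -2.21. The AP-2 factors of amacrine and horizontal cells were among the genes with few reads, *Tfap2a* with 29 and 47 and *Tfap2b* with 9 and 156. *Neurod4*, a bHLH factor of bipolar cell genesis, lay the other way with 92 and 39 reads. None of the widened intervals in this group left out 0.

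Ganglion cell genes were the one neuronal group with a higher sum in Cd11c-active, 359 reads against 126. *Rbpms*, an RNA-binding protein used to mark ganglion cells, made up 325 and 126 of these, a log2 ratio of 1.55 (widened -1.58 to 5.91). *Nefm*, a neurofilament subunit of large axons, had 25 and 0 reads, and *Sncg*, gamma-synuclein, had 9 and 0. For the sum this ratio was 1.70 (widened -1.34 to 6.02). *Rbpms* is also made by smooth muscle and pericytes, whose 7 listed markers had 828 Cd11c-active reads against 31, with 6 of them at 0 in the Cd11c-lineage library. Their part in the *Rbpms* value was not tested.

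Genes of neurons in general and of synapses had 490 and 4795 reads, an 8.60-fold higher sum in Cd11c-lineage with a log2 ratio of -3.10 (widened -4.69 to -1.85). This group holds 5 of the 6 genes selected on their 0 reads. The remaining 7 genes had 490 and 1845 reads, a log2 ratio of -1.73 (-3.40 to -0.33). *Ncam1*, the neural cell adhesion molecule, had 0 Cd11c-active reads against 1119, the largest one-sided count of the set. *Zfp536*, a zinc finger repressor of neuronal differentiation, had 0 and 609. Only for *Ncam1* and *Zfp536*, of the 33 listed genes, did the widened interval leave out 0, with upper ends of -1.37 and -0.31, and as both had been selected on their 0 reads this is a description and no support. *Ttyh1*, a tweety family membrane protein of neural progenitors, glia and neurons, had 0 and 468 reads. *Trim9*, a ubiquitin ligase of growing axons, and *Nlgn2*, the adhesion protein of inhibitory synapses, each had 0 and 377.

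The genes of this group that were not selected on a 0 included parts of the vesicle release machinery. *Snap25*, a subunit of the SNARE complex that fuses vesicles with the membrane, had 60 and 414 reads, and its log2 ratio was -2.59 (-3.02 to -2.21 by counting error, upper widened end 0.98). *Syt1*, the calcium sensor of release, had 6 and 208 reads. *Map1b*, a microtubule protein of growing axons, had 260 and 723, a log2 ratio of -1.29 (widened -3.87 to 0.77). *Celf4*, a neuronal RNA-binding protein, had 0 and 289 reads. *Tubb3*, the neuronal beta-tubulin, had 7 and 99 reads. The neuronal RNA-binding proteins *Elavl3* and *Elavl4* had 96 against 26 and 61 against 86 reads. Of these 7 genes, 6 were lower in Cd11c-active, where 49.8% of all genes were, and *Elavl3* was the exception. Nothing is read from this count either, since the members were chosen with earlier results of these data known.

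Macroglial genes were dominated by *Glul*, glutamine synthetase, which Muller glia use to recycle glutamate and which macrophages also make. *Glul* had 27773 reads in the Cd11c-active library against 33293, a log2 ratio of -0.07 (widened -0.30 to 0.15). The other 5 genes had 329 and 1014 reads, a log2 ratio of -1.44 (widened -3.62 to 0.34). *Slc1a3*, a glial glutamate transporter that macrophages can also make, had 73 and 642 reads, a log2 ratio of -2.94 (widened -9.41 to 0.18). *Dkk3*, a secreted protein of Muller glia and progenitors, had 47 and 301. Genes in the opposite direction were *Rlbp1*, the retinaldehyde-binding protein of Muller glia and pigment epithelium, with 94 and 0 reads, and *Hes1*, a Notch target that many cells make, with 115 and 63. *Hes1* had a log2 ratio of 1.05, which was 0.91 with scaling to library totals. *Sox2*, a factor of progenitors and Muller glia, had 0 and 8 reads.

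**Figure D2:**
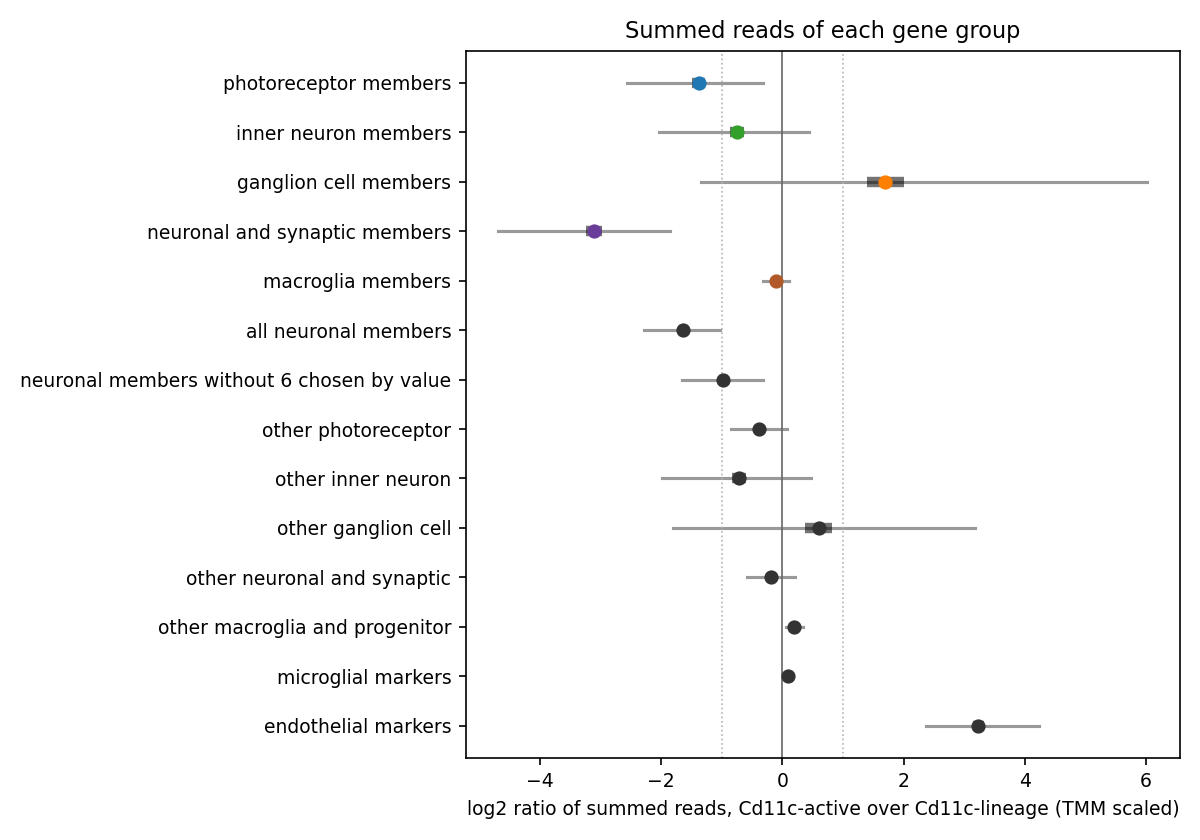
The log2 ratio of summed reads, Cd11c-active over Cd11c-lineage, for each group of genes (rows). Points are the measured ratios, thick bars 95% intervals for counting error, thin bars the widened intervals, and dotted lines a 2-fold difference. Photoreceptor and neuronal and synaptic members lie left of 0 with their widened intervals. Their distance from 0 is in part due to *Pdc* and 5 other genes selected on 0 reads. Ganglion cell members lie right of 0 with an interval that spans it, and microglial markers lie near 0.

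Read per transcript length, the set was low except for *Glul*. Levels here are RPKM, the reads per kilobase of the longest annotated transcript scaled to library size. *Glul* was at 806 in Cd11c-active and 849 in Cd11c-lineage, inside the range of the microglial markers, which was 43.7 to 3095 and 49.7 to 2710. The other 32 genes reached at most 10.3 in Cd11c-active (*Rbpms*) and 12.1 in Cd11c-lineage (*Ncam1*), below the lowest microglial marker, *Itgam*, in both. The median of all genes was 5.94 and 5.72, and 5 of the 33 genes were above it in Cd11c-active and 14 in Cd11c-lineage. Among photoreceptor genes in Cd11c-lineage the order per length was *Crx* (10.6), *Pdc* (10.2), *Prdm1* (9.73), *Otx2* (8.02), *Opn1sw* (6.70), *Nrl* (5.94) and *Neurod1* (3.55). With 1 library this order has no error over samples, so no neighbours in it are shown to differ. In Cd11c-active the photoreceptor levels were led by *Prdm1* (6.75) and *Nrl* (5.07).

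**Figure D3:**
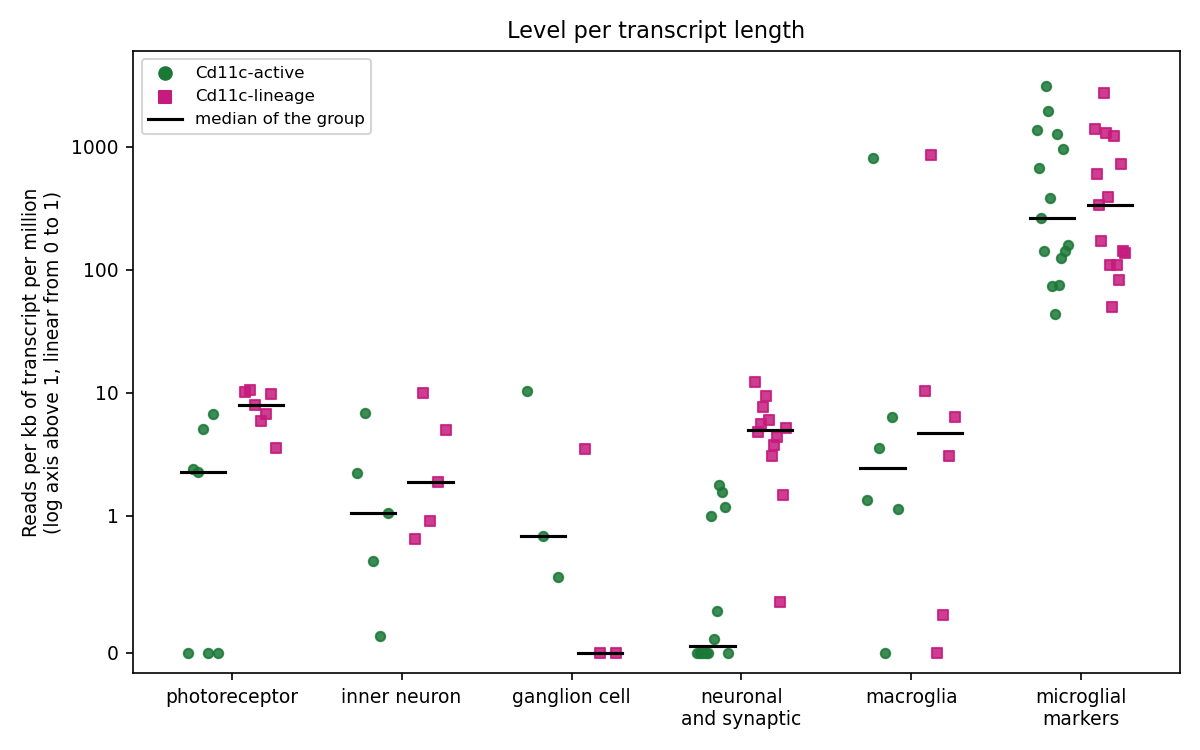
Level of each listed gene per transcript length (vertical axis, RPKM, linear from 0 to 1 and logarithmic above) by group, in Cd11c-active (green circles) and Cd11c-lineage (magenta squares), with black lines at the group medians. *Glul* lies among the microglial markers, and the other 32 genes lie at or below 12.1.

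Of the 31 genes with at least 20 reads, 25 differed at least 2-fold between the libraries, where 44.9% of all genes did. At least 2-fold lower in Cd11c-active were 19 of the 31 (61.3%), against 21.6% of all genes, and at least 2-fold higher were 6 (19.4%), against 23.3%. Lower by any amount were 25 of 31, against 49.8% of all genes. The median log2 ratio of the 31 was -2.21 (the same with genes at 0 reads set to the limit of 3 reads). Because the same ratios took part in the choice of genes, nothing is read from these counts. Among the 21 genes with 200 reads or more, 16 were at least 2-fold lower and 1 (*Rbpms*) higher, where 12.2% and 14.1% of all genes of that depth were. Without the 6 genes selected on their 0 reads the counts were 10 and 1 of 15.

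A count of 0 in one library was common at low depth and rare above it. Of all genes with 20 to under 200 reads, 31.7% had 0 in Cd11c-active and 31.3% in Cd11c-lineage. From 200 to under 400 reads these shares were 5.33% and 4.73%, from 400 to under 800 reads 0.298% and 1.14%, and from 800 to under 1600 reads 0.0504% and 0.252%. *Ncam1*, *Zfp536*, *Pdc* and *Ttyh1*, at 0 in Cd11c-active with over 400 reads, had been selected on that 0, so nothing is read from their place among these shares. Among genes that were not selected on a 0, *Opn1sw* and *Celf4* were at 0 in Cd11c-active among 6 of 200 to under 400 reads, and *Neurod1* among 10 of 20 to under 200 reads, where *Nefm* and *Rlbp1* were at 0 in Cd11c-lineage.

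**Figure D4:**
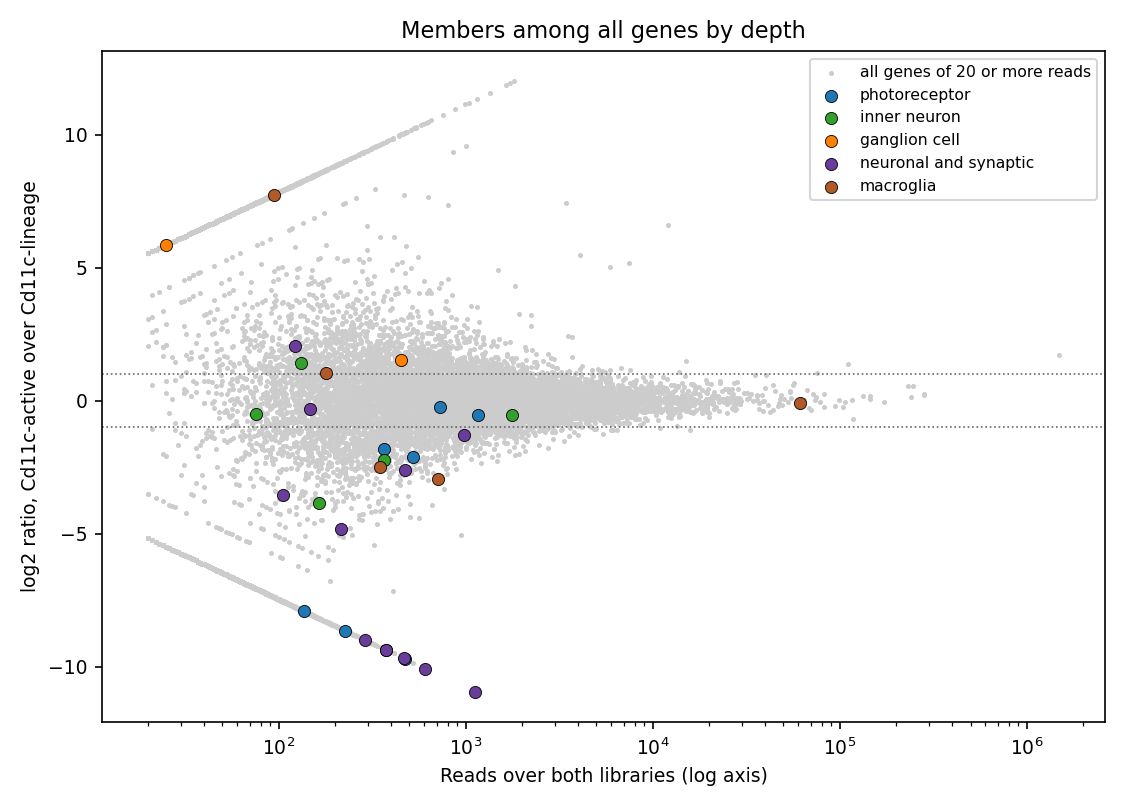
The log2 ratio, Cd11c-active over Cd11c-lineage (vertical axis), against reads over both libraries (horizontal log axis) for all genes of 20 or more reads (grey) and for the 31 listed genes of that depth (coloured by group), with dotted lines at a 2-fold difference. The straight outer edges are genes at 0 reads in one library, whose ratio depends on the 0.5 reads added to each count; *Ncam1* ends the lower edge.

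Further genes of the same cell classes, listed for this work from textbook expression and not for their values, gave a less biased description, although the direction of some retinal genes was known when they were listed. Of 127 neuronal genes 74 were listed in the table and 72 had at least 20 reads. At least 2-fold lower in Cd11c-active were 38 of the 72 (52.8%), against 21.6% of all genes, and at least 2-fold higher were 9 (12.5%), against 23.3%. Genes with few reads pass a 2-fold difference more often, so the count is also given by depth. Of the 39 genes with under 200 reads, 26 were at least 2-fold lower and 6 higher, where 42.3% and 43.3% of all genes of that depth were. Of the 33 with 200 reads or more, 12 were at least 2-fold lower and 3 higher, against 12.2% and 14.1%. Lower by any amount were 56 of the 72 (77.8%), against 49.8% of all genes, and the median log2 ratio was -1.27 against 0.01 for all genes. Summed, they had 16014 and 22229 reads with a log2 ratio of -0.29 (-0.57 to -0.0048 widened), but a few widely made genes held most of them. The 64 listed genes with under 1000 reads had 4544 and 10518 reads, a log2 ratio of -1.02 (-1.53 to -0.54), a limit chosen after the data were seen. Among 51 genes of 20 to under 200 reads from these lists and the further macroglial one, 28 were at 0 in Cd11c-active and 7 in the other library, against 31.7% and 31.3% of all genes of that depth. The higher depths had 1 and 0 of 15 genes at 0 from 200 to under 400 reads and 0 and 1 of 10 from 400 to under 800.

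The counts by class stand beside shares over all genes of 49.8% lower, 21.6% at least 2-fold lower and 23.3% at least 2-fold higher, which are not matched for depth. By class, 17 of 22 further photoreceptor genes were lower in Cd11c-active, 12 of them at least 2-fold, and 2 were at least 2-fold higher. The summed log2 ratio of this class was -0.38 (widened -0.85 to 0.07). The 3 with the most reads were *Gnb1*, a G protein subunit that most cells make, with 3703 and 4325 reads, *Rbp3*, the retinoid-binding protein of the space around photoreceptors, with 631 and 1085, and *Isoc1* with 811 and 488. Of 12 further inner neuron genes 10 were lower, 9 at least 2-fold (21.6% of all genes were), and 0 were at least 2-fold higher. Their summed log2 ratio was -0.71 (widened -1.99 to 0.47). The gene with the most reads was *Prkca*, a kinase of rod bipolar cells and other tissues, with 582 in each library. The genes of GABA synthesis and loading in amacrine and horizontal cells, *Gad1*, *Gad2* and *Slc32a1*, named after their values were seen, had 124, 40 and 52 Cd11c-lineage reads, and each was at 0 in Cd11c-active.

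Of 19 further ganglion cell genes 4 were listed, at 395 and 297 reads in all, with a summed ratio of 0.60 (-1.80 to 3.18 widened). Of these, 3 were lower in Cd11c-active, the median log2 ratio was -0.27, and *Ebf3* alone was higher. *Ebf3*, *Uchl1* and *Ebf1* had the most, with 242 and 74, 94 and 120, and 55 and 82 reads. Of 34 further neuronal and synaptic genes 26 were lower in Cd11c-active, 16 at least 2-fold (47.1%, against 21.6% of all genes), and 6 were at least 2-fold higher (17.6%, against 23.3%). The summed log2 ratio of this class was -0.19 (widened -0.59 to 0.20). The 3 with the most reads are cytoskeletal genes that dividing cells also make: *Tubb2a* had 1318 and 1668 reads, *Stmn1* 1657 and 900, and *Tuba1a* 1635 and 681. *Syp*, the vesicle protein synaptophysin, named after its values were seen, had 200 and 802 reads, while *Syn1*, the vesicle protein synapsin 1, had 127 and 0.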

How the data were processed

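Raw counts per gene were deposited by the authors for both libraries, as whole numbers without normalization, together with the authors' log2 fold change and log2 average CPM, which were not used. Per the labels' protocols, ribosomal RNA was depleted and stranded libraries were made. The submitters' processing notes name cutadapt 3.5, STAR 2.7.9a, featureCounts 1.6.3, edgeR 4.0.16 and GRCm39. Annotation, the strand setting and duplicate handling are not given in the sources used here, so reads of overlapping genes and their antisense partners may be shared. No column belonged to an unmapped sample (0).

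Library sizes (12943998 and 13402625 reads) were scaled with TMM factors of 0.954 (Cd11c-active) and 1.05 (Cd11c-lineage) from edgeR 4.0.16 in R 4.3.3. Log2 ratios of single genes used reads plus 0.5, and those of sums plain reads. Intervals are exact Clopper-Pearson 95% intervals on reads, which cover counting error only, since without molecular identifiers a read is not an independent molecule. Widened intervals used reads divided by 88.7, which is how far the robust variance of log2 ratios exceeded their counting variance, unrounded. This takes the typical gene as unchanged, and for sums it also takes the genes as independent. With 1 library per group no test was made, and a gene counts as past the fold if it differs by at least 1 on the log2 scale and has at least 20 reads over both libraries. Ratios and widening were tested on simulated data. The widening was checked there for single genes with at least 800 and under 1600 reads, and not for sums.

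Transcript lengths and GC content came from GENCODE M21 (GRCm38), which matched 13499 genes (99.6%), and promoters from RefSeq (GRCm38.p6). No coordinates were carried between builds. Members and lists were chosen with earlier results of these data known. Members with at least 200 reads were named with their reads, as were the 3 genes with most reads of each further list, except a few that are not reported here. Alternatives were other scalings (library totals, DESeq2 1.42.0 size factors, TMM without ribosomal, mitochondrial, 7SK and 7SL genes), correction for transcript length and GC content, other minimums of reads, another prior and lists without given genes. Python 3.11.15, numpy 2.4.6, scipy 1.17.1, pandas 2.3.3 and matplotlib 3.10.9 were used.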

Additional observations from a re-analysis of the deposited data

How the results depend on the processing

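Of 55 recomputed values, 50 stayed within the widened interval of the reported sum or within 1.5 times the reported count, and 0 changed direction. Scaling to library totals shifted every log2 ratio by -0.14, far less than most widened intervals span. For the scalings, staying within them therefore says little. Leaving out the genes selected on their 0 reads moved the log2 ratio of neuronal and synaptic genes to -1.73 and of all neuronal genes to -0.97. Leaving out *Glul* moved the macroglial sum to -1.44, and leaving out *Glul*, *Slc1a3* and *Hes1*, which macrophages also make, moved it to -0.95. Keeping further neuronal genes of under 1000 reads alone moved their sum to -1.02. The count of 25 genes past the fold was 17 to 27 over its alternatives, and the 17 came from the smaller number of genes with 200 reads. The ganglion cell sum without *Rbpms* gave no ratio, since *Nefm* and *Sncg* had 0 reads in Cd11c-lineage. No paired analysis was possible because each group has 1 library. Depth limits single genes: up to 266 reads can be missed after widening, so that a 0 beside fewer reads than that does not show a difference. A 0 beside more reads can fall short too. *Pdc* and *Ttyh1*, at 0 beside 476 and 468 reads, had widened intervals that reached 0.17 and 0.20.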

Other observations

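Further macroglial and progenitor genes did not lie to one side. Of 20 listed genes, 8 were at least 2-fold higher in Cd11c-active and 9 at least 2-fold lower, where 23.3% and 21.6% of all genes were. These shares are not matched for depth. At 20 to under 200 reads 43.3% and 42.3% of all genes were, and many of the 20 lay there. The 3 with the most reads, *Sparc* (66324 and 67168), *Slc6a6* (9147 and 7742) and *Notch1* (2131 and 2179), are also made by other cells, and the remaining 17 had 1506 and 1323 reads, a log2 ratio of 0.37 (widened -0.72 to 1.48). The genes in the next sentences were named after their values were seen. *Gja1*, the gap junction protein connexin 43 of astrocytes and vessel walls, had 453 Cd11c-active reads against 0, and *Cdh2*, N-cadherin, had 548 and 210. *Aldoc*, a glycolytic enzyme of astrocytes, had 74 and 0, and *Kcnj10*, a glial potassium channel, 167 and 70. On the other side, *Rax*, a homeobox factor, had 32 and 223 reads, *Six3*, a homeobox factor, 0 and 170, and *Fabp7*, a fatty acid binding protein, 0 and 103. *Slc1a2*, a glutamate transporter, had 0 and 142. Factors of progenitors and Muller glia lay on both sides, as *Lhx2* had 37 and 0 reads and *Sox9* 43 and 18. Endothelial markers, with 8801 and 1064 reads, lay on the side of *Gja1*, and their part in its value was not tested.

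Lens crystallin genes, which the retina and some macrophages also make, were present in both libraries with 2073 and 2273 reads over 4 listed genes, a log2 ratio of 0.05 that was -0.08 with scaling to library totals. *Crybb1* held most of them, with 1339 and 1822 reads, while *Cryba4* had 647 and 311, *Cryab* 0 and 140, and *Crybb3* 87 and 0. The listed pigment epithelium markers had 0 and 17 reads in all, the erythroid one 0 and 31, and the monocyte and neutrophil ones 35 and 239.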
